A study of Mus musculus with 10 samples.

Results

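The cytosolic heat shock chaperones described here are the products of 10 mouse genes: the Hsp70 genes Hspa1a, Hspa1b and Hspa8, the Hsp110 genes Hsph1 and Hspa4l, the J protein genes Dnajb1 and Dnaja1, the Hsp90 gene Hsp90aa1, the small heat shock protein gene Hspb1 and the cochaperone gene Bag3. They are 10 of 18193 genes for which the array has a probe set naming that gene alone. They were measured in hippocampal RNA on oligonucleotide arrays with 45101 probe sets, a probe set being a group of short oligonucleotides that report on 1 transcript. Every probe set that the platform annotation assigns to one of these symbols was taken, which gave 28 probe sets. Of these, 26 were among the 27022 probe sets bright enough to be tested, those in the upper 60% by mean signal. The other two, 1433251_at and 1441827_x_at, belong to Hsp90aa1 and had signals between 8.3 and 85.5 on all arrays. The members were not chosen by a threshold on measured values, but they were chosen with earlier results of these data known.

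All mice were 3 weeks old, and every array held hippocampal RNA pooled from 3 to 4 of them, 20 A-CREB and 14 wild-type mice in all. A-CREB is a dominant-negative protein that keeps CREB, the cAMP-responsive transcription factor, from binding DNA. A-CREB mice (strain label TetO-A-CREB-95 C57BL6 F1/J) received saline, kainate at 14 mg/kg or kainate at 18 mg/kg. Wild-type mice (C57BL6 F1/J where a strain was given) received kainate at 14 mg/kg or saline. Kainate is a glutamate receptor agonist that provokes seizures. Each of these 5 groups has 2 arrays, numbered 1 and 2 in the labels. The TetO promoter in the strain name is driven by a tetracycline-controlled activator, and the sources used here do not name the cells that express it or the interval from injection to dissection. The dose of 18 mg/kg was given to A-CREB mice alone. The transgene was not measured by a probe set of its own, so the genotype labels could not be checked. Since mice were pooled, errors and p-values measure how far pools differed. Variation from mouse to mouse enters them only as averaged over the 3 to 4 mice of a pool. The 2 arrays per group limit the precision of every value.

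Heat shock chaperones bind unfolded proteins and help them to fold, to be held in solution or to be passed on for degradation. Hsp70 proteins do so in cycles of ATP binding and hydrolysis. J proteins deliver clients and speed hydrolysis, and Hsp110 and Bag proteins exchange the nucleotide. Hsp90 takes over late folding steps of kinases and receptors, and small heat shock proteins hold unfolded chains without ATP. Part of the family, with Hspa8 as the best known case, is made at all times, while Hspa1a and Hspa1b are classical inducible genes. Heat shock factor 1 drives the inducible members by binding heat shock elements, inverted repeats of the unit GAA, in their promoters. In the rodent hippocampus seizures are known to induce Hsp70 in neurons and Hspb1 in astrocytes.

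Fos, an immediate early gene that served as the check of the kainate treatment, had signals of 15194 to 20356 on the 6 kainate arrays, against 1417 to 2293 on the 4 saline arrays. The deposited signals had been scaled to a common mean of 500 per array, but their medians were 94.9 to 106 for replicate 1 of the groups, against 135 to 152 for replicate 2. Each of the 10 arrays was most highly correlated with one that carried its own replicate number, so results are also given with the replicate number as a block wherever that changes a call. Wild-type kainate replicate 2 stood apart by 6 genes typical of the striatum, whose summed signal was 14038 there and 2642 to 5539 on the other arrays. Summed signals of 6 microglial markers ran from 11314 to 13822 on the A-CREB kainate arrays, against 10009 and 11551 on the A-CREB saline arrays, and were 8720 and 9159 on the wild-type kainate arrays, against 9774 and 10335 on the wild-type saline arrays. Those of 9 endothelial and mural markers lay between 6590 and 7624 on all arrays. The 8 markers of pyramidal and granule neurons summed to 21474 to 26645 on the kainate arrays, against 24990 to 34295 on the saline arrays. All markers of these lists with a probe set were bright enough to be tested. Their part in the results below was not tested.

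The promoter windows of the members show which of them carry the heat shock element in its plainest form. RefSeq windows on GRCm38.p6, from 250 bases before to 50 bases after a transcription start, were found for 8 of the 10 genes, 12 windows in all. Hspa8 and Hsp90aa1 had no entry. A heat shock element of 2 units, GAANNTTC or TTCNNGAA on either strand, was present in 7 of the 12 windows and in 6 of the 8 genes, against 15.1% of 32851 mouse promoter windows of the same length. Both spellings read alike on the opposite strand. The form with 3 units, GAANNTTCNNGAA or TTCNNGAANNTTC, occurred in Hsph1 alone among the members, and in 0.603% of all windows. Elements of 3 units contain those of 2. No member held the full CREB site TGACGTCA, which 1.79% of all windows contain. Its core TGACG or CGTCA, the same letters read on either strand, occurred in 4 of the 12 windows, against 20.8% of all windows. The windows below are those of the genes to which the results return, written 5′ to 3′ on the strand of the gene, with heat shock elements in capitals. Hsph1 is shown as the member with the 3-unit form, Hspb1 as the one with 2-unit forms in tandem upstream of the start, Hspa1a and Hspa1b as a near-identical pair, and Dnajb1 as the member that responded most and has no such element here. They lie at chr5:149636266-149636565 on the minus strand (Hsph1), chr5:135887669-135887968 on the plus strand (Hspb1), chr17:34972107-34972406 on the minus strand (Hspa1a), chr17:34959189-34959488 on the minus strand (Hspa1b) and chr8:83607925-83608224 on the plus strand (Dnajb1).
Hsph1: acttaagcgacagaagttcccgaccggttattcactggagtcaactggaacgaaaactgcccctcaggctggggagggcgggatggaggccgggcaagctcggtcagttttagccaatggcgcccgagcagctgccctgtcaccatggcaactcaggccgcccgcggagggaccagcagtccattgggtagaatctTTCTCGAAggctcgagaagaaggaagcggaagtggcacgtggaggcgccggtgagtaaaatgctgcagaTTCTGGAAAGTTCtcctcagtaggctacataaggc
Hspb1: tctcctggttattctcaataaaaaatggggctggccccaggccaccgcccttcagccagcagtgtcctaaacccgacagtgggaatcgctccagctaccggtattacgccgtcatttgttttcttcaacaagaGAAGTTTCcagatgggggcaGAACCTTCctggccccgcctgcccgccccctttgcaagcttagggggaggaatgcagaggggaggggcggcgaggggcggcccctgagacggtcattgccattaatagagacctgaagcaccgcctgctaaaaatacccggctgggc
Hspa1a: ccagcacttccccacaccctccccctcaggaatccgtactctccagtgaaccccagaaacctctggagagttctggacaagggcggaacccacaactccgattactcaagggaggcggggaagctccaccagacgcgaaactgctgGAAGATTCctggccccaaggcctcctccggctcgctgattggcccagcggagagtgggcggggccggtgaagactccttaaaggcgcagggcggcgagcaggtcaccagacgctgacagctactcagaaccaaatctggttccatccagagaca
Hspa1b: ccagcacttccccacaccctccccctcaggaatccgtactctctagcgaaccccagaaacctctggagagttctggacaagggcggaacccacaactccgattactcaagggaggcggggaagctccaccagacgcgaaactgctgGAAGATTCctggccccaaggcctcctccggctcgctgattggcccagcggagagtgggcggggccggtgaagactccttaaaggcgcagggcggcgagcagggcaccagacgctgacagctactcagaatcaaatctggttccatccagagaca
Dnajb1: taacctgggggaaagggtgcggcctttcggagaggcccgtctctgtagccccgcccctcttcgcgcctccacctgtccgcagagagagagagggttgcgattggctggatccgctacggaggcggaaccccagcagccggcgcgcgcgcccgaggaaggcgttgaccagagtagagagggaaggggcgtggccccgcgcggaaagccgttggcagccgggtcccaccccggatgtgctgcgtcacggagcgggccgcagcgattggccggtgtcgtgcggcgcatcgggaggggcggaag

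The first base of the element lay 104 bases before the start in Hspa1a and in Hspa1b, and 117 and 97 bases before it in Hspb1. In Bag3 it lay 42 bases after the start and in Dnaja1 124 bases before it. The windows of Hspa1a and Hspa1b were identical in 296 of 300 bases. The 2 genes also have near-identical coding sequences, so that a probe set named for one of them may read transcripts of both, and their signals are not independent. Hspa1a (chr17:34969359-34972156) and Hspa1b (chr17:34956429-34959238) lie beside each other on chromosome 17. The letters of a motif describe the window only and are not evidence that a factor bound there.

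Dnajb1 had the largest mean kainate response of the members, although at 18 mg/kg Hspa1a and 1 probe set of Hspa8 had larger ones, described further on. It encodes the J protein Hsp40, the cochaperone that activates inducible Hsp70. On both of its probe sets, 1416755_at and 1416756_at, all 6 kainate arrays exceeded all 4 saline arrays. For 1416756_at the mean response, the average of the 3 kainate responses weighted equally by genotype, was a log2 rise of 1.46 ± 0.25 (SE), or 2.76-fold (limma, adjusted p = 0.047). It was the one member probe set of 26 past an adjusted p of 0.05, against 0.451% of all 27022 tested that rose. With the replicate block 3 member probe sets of 2 genes rose, against 1.12% of all tested.

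The signal of Dnajb1 on 1416756_at in A-CREB mice was 1300 and 1050 after saline, 4328 and 2949 after 14 mg/kg and 2076 and 5047 after 18 mg/kg. In wild-type mice it was 3295 and 2876 after kainate, against 1392 and 954 after saline. On 1416755_at the A-CREB signals were 1776 and 1884 after saline, 5160 and 4016 after 14 mg/kg and 3413 and 6992 after 18 mg/kg, and the wild-type signals were 4226 and 2861 after kainate, against 1974 and 2014 after saline. The saline pools of the 2 genotypes lay within a narrow band on 1416755_at (1776 to 2014) and a wider one on 1416756_at (954 to 1392). Every kainate pool lay above these bands. The pools given 18 mg/kg differed most from each other, replicate 2 being 2.43-fold above replicate 1 on 1416756_at and 2.05-fold on 1416755_at. The mean response of 1416755_at was 1.08 ± 0.21 (adjusted p = 0.089 by limma, and 0.013 with the replicate block), and that of 1416756_at had an adjusted p of 0.0056 with the block. Because the tissue was measured in bulk, more cells that express a gene and more RNA of it per cell cannot be told apart here or below.

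Within single groups no member passed the threshold. For 1416756_at of Dnajb1 the response was 1.59 ± 0.38 in A-CREB mice at 14 mg/kg (adjusted p = 0.35), 1.45 ± 0.38 in A-CREB mice at 18 mg/kg (adjusted p = 0.74) and 1.40 ± 0.38 in wild-type mice at 14 mg/kg (adjusted p = 0.92, all by limma). The spread that enters these errors is shared by all groups. When either 18 mg/kg pool was left out and the replicate block was kept, a setting chosen after the data were seen, the error of this probe set became 0.15. A single array is then left at 18 mg/kg, so the wide gap between the pools of that dose no longer enters the error. Adjusted p-values from this setting are therefore not given here. The mean response on 1416756_at lay between 1.30 and 1.62 when single arrays were left out without the block. The call was lost when wild-type kainate replicate 1 (adjusted p = 0.25) or replicate 2 (0.14) was left out, and likewise for wild-type saline replicate 1 (0.080) or replicate 2 (0.23), A-CREB kainate 14 mg/kg replicate 1 (0.12) or replicate 2 (0.071), and A-CREB saline replicate 1 (0.16) or replicate 2 (0.19). It was kept without either 18 mg/kg pool (0.0044 without replicate 1 and 0.018 without replicate 2).

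**Figure D1:**
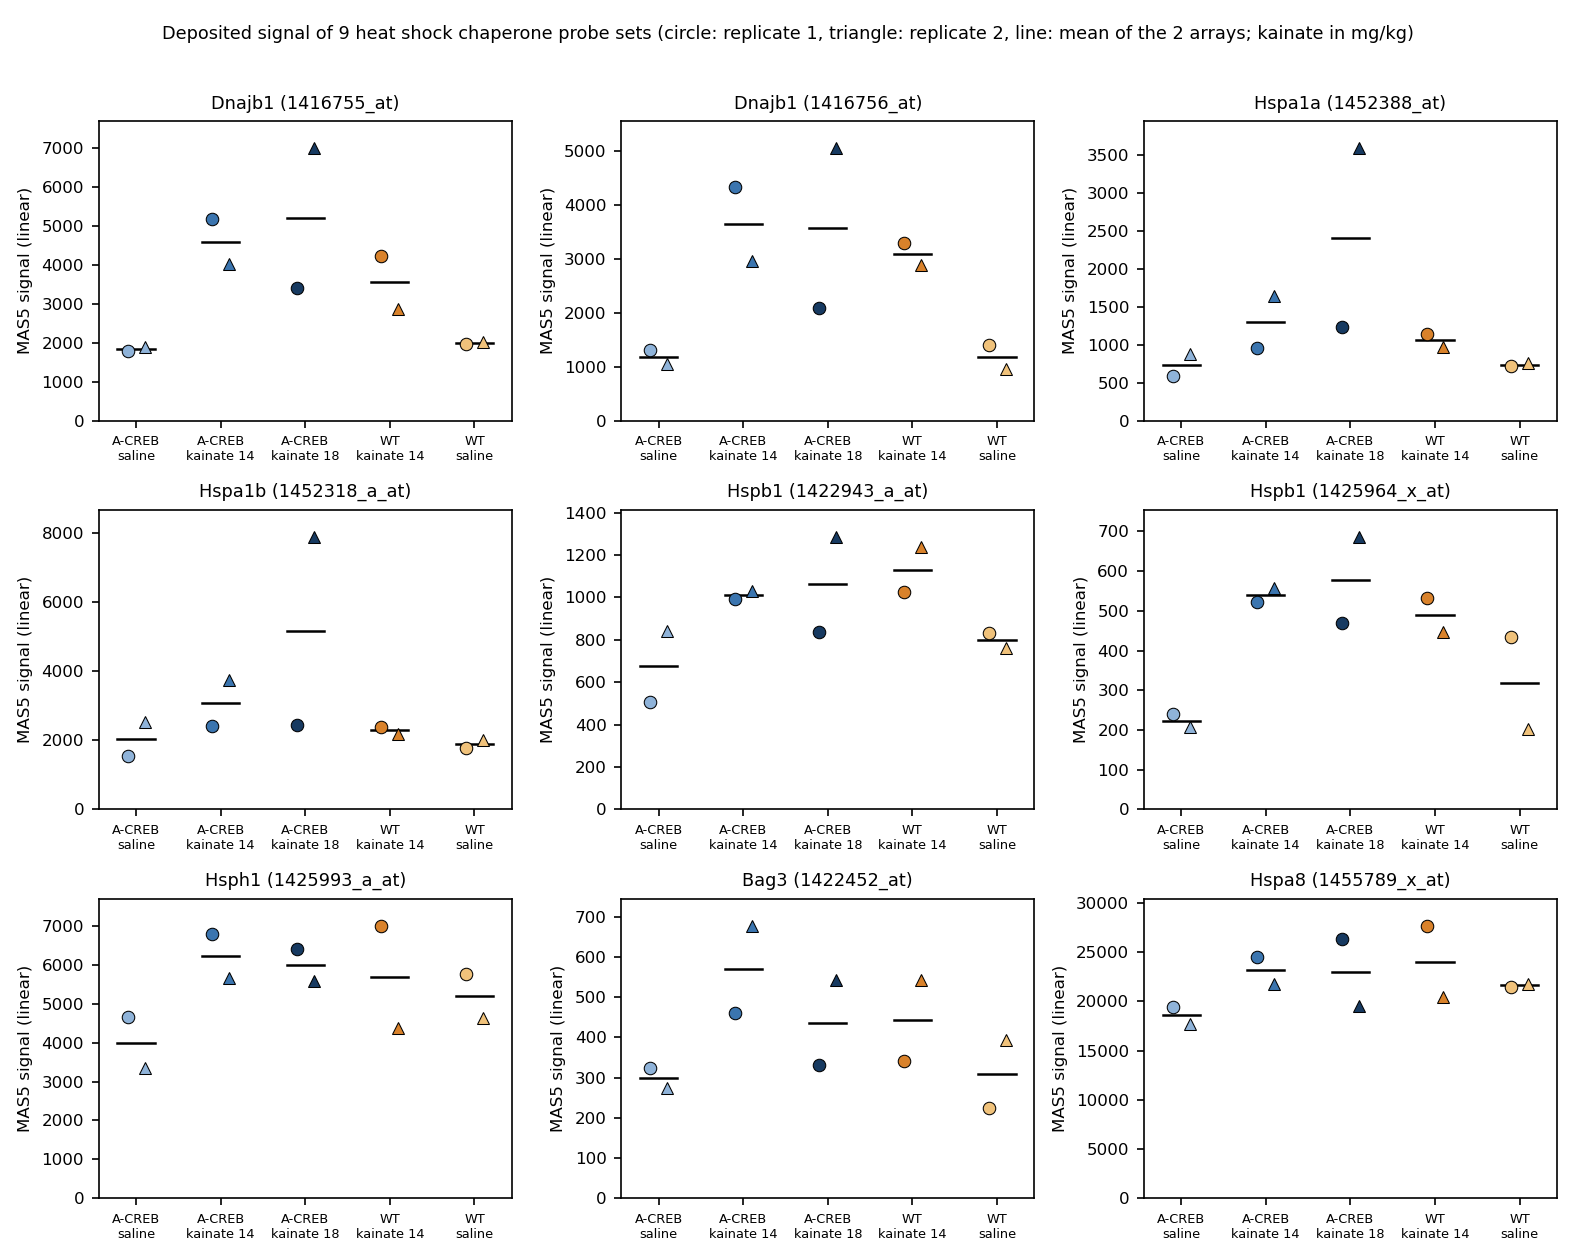
Deposited signal (linear scale from 0) on each array for 1 probe set per panel, with a circle for replicate 1, a triangle for replicate 2 and a line for the mean of the 2 arrays, for 9 probe sets. The groups run A-CREB saline, A-CREB kainate 14 mg/kg, A-CREB kainate 18 mg/kg, wild-type kainate 14 mg/kg and wild-type saline. Dnajb1 lies above all saline pools on every kainate pool, and the 2 pools at 18 mg/kg lie far apart for Dnajb1, Hspa1a and Hspa1b.

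Hspa1a and Hspa1b, the inducible Hsp70 genes, were highest in 1 pool of A-CREB mice given 18 mg/kg. Hspa1a (1452388_at) had signals of 580 and 870 after saline, 960 and 1638 after 14 mg/kg and 1225 and 3587 after 18 mg/kg in A-CREB mice. In wild-type mice it had 1144 and 964 after kainate, against 712 and 761 after saline. All 6 kainate arrays lay above all 4 saline arrays, and the second pool at 18 mg/kg lay far above the others. The mean response was 0.83 ± 0.30 (adjusted p = 0.67, and 0.084 with the block), so it did not pass the threshold.

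Hspa1b was read by 3 probe sets. On the brightest, 1452318_a_at, the A-CREB signals were 1539 and 2527 after saline, 2428 and 3755 after 14 mg/kg and 2444 and 7885 after 18 mg/kg, and the wild-type signals were 2394 and 2194 after kainate, against 1786 and 2016 after saline. On 1427127_x_at they were 1268 and 1248, 1686 and 1601, and 1485 and 4498 in A-CREB mice in the same order, and 1652 and 1062 after kainate, against 1295 and 950 after saline in wild-type mice. On 1427126_at they were 887 and 777, 1137 and 1177, and 936 and 3279 in A-CREB mice, and 1209 and 752 after kainate, against 1001 and 607 after saline in wild-type mice. In wild-type mice kainate and saline pools overlapped on the 2 dimmer probe sets and were apart on 1452318_a_at, and 1 pool set the mean at 18 mg/kg throughout. The mean responses were 0.57 ± 0.31, 0.48 ± 0.29 and 0.52 ± 0.33, with adjusted p-values between 0.97 and 1. With the block they lay between 0.24 and 0.46.

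The response of the inducible Hsp70 genes at 18 mg/kg rested largely on that pool for Hspa1b and in part for Hspa1a. It was 1.53 ± 0.45 for Hspa1a and 1.15 ± 0.47, 1.03 ± 0.43 and 1.06 ± 0.49 for the 3 Hspa1b probe sets in the order above (adjusted p = 1 for all by limma). Without replicate 2 it was 0.77 for Hspa1a and 0.31, 0.23 and 0.17 for Hspa1b. Without replicate 1 it was 2.30 for Hspa1a and 1.99, 1.82 and 1.95 for Hspa1b. With a single array left at 18 mg/kg, that array is assumed to vary like the other groups.

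The difference between the pools at 18 mg/kg was examined over all members, after these values had been seen. Replicate 2 exceeded replicate 1 there by over 1 log2 unit more than it did on average in the other 4 groups for 7 member probe sets, of Hspa1b, Dnajb1, Hspa1a and Hspa8, and fell short of it by as much for 0. Of all tested probe sets 2.28% were higher and 1.28% lower by this measure. The excess was 2.16, 1.88 and 1.34 for the probe sets of Hspa1b, 1.67 and 1.23 for those of Dnajb1, 1.24 for Hspa1a and 1.17 for Hspa8 1431182_at. In the other groups 0 member probe sets differed in this way, apart from 1 that was higher on replicate 1 of the wild-type saline pools. Hsp90aa1 (−0.18 to 0.18), Dnaja1 (−0.22 to 0.00) and the bright probe sets of Hspa8 (−0.25 to 0.07) did not share the excess. On this array 10 member probe sets of 6 genes had their highest signal, against 13.1% of all tested. Its microglial sum was 13574, against 11909 on replicate 1, and its Fos signal was 16467, against 15194. The array also had the lowest sums of all 10 arrays for markers of 3 other cell types. They were 60189, against 77813 on replicate 1, for oligodendrocytes, 24453, against 39446, for the choroid plexus and 19669, against 24660, for interneurons. Whether any of these is connected with the chaperone values was not tested.

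**Figure D2:**
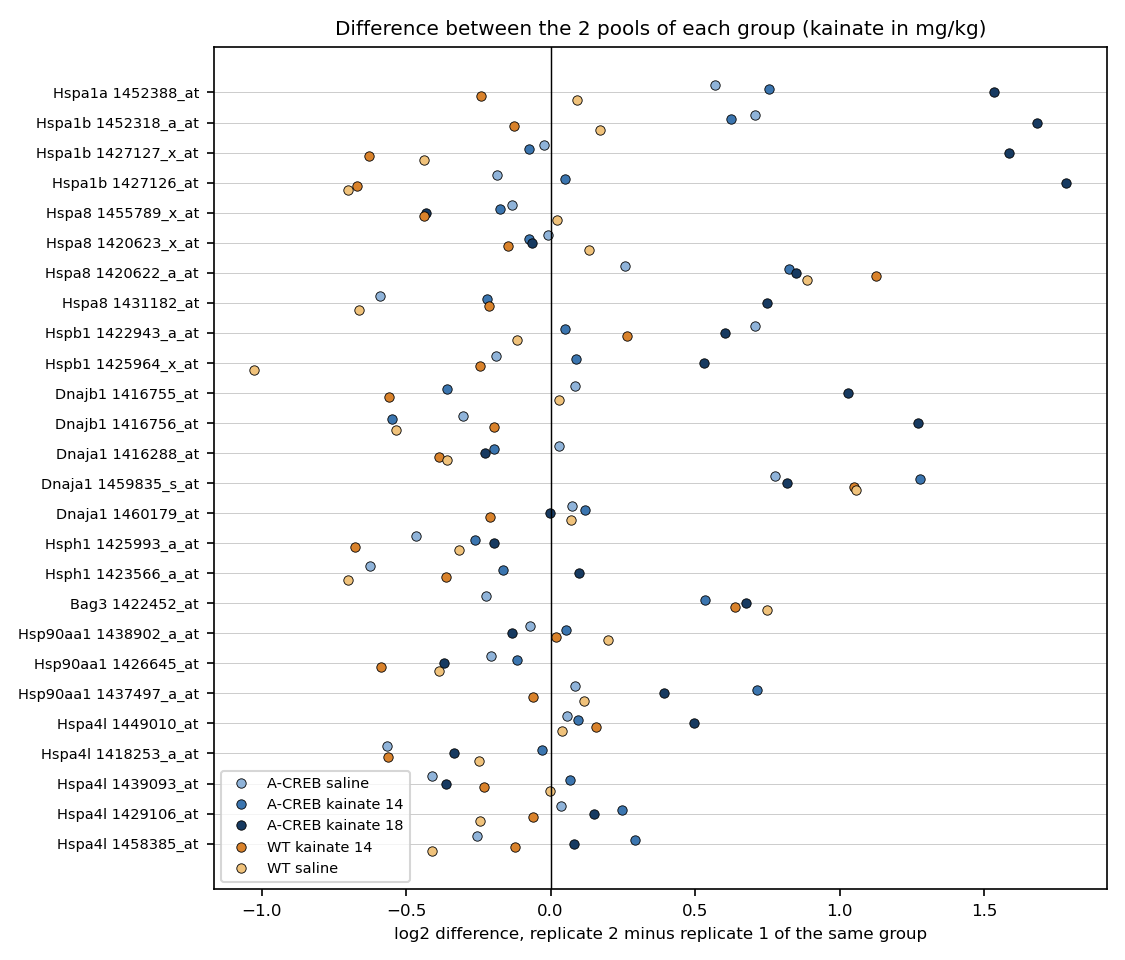
Difference between replicate 2 and replicate 1 (log2 of signal + 22) for each member probe set, with 1 point for each of the 5 groups in its own colour. The 18 mg/kg points of Hspa1b, Hspa1a and Dnajb1 lie between 1.03 and 1.78, to the right of the other groups.

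Hspb1, the small heat shock protein Hsp25 of mice, had the largest mean response after Dnajb1 on 1 of its 2 probe sets, the dimmer 1425964_x_at. On that probe set the A-CREB signals were 239 and 207 after saline, 523 and 557 after 14 mg/kg and 469 and 686 after 18 mg/kg. The wild-type signals were 533 and 447 after kainate, against 435 and 202 after saline. The kainate arrays all exceeded the saline arrays, although the wild-type saline pools differed widely. The mean response was 0.95 ± 0.22 (adjusted p = 0.19 by limma, 0.032 with the block). On 1422943_a_at the A-CREB signals were 507 and 842, then 992 and 1029, then 838 and 1285, and the wild-type signals were 1026 and 1236 after kainate, against 830 and 763 after saline. Here 1 kainate pool lay below the highest saline pool, and the mean response was 0.56 ± 0.18 (adjusted p = 0.57, and 0.075 with the block). The summed signals of 6 astrocyte markers, from cells that can make Hspb1, ran from 41373 to 47459 on kainate arrays and from 38065 to 45959 on saline arrays, and their part was not tested.

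Bag3, a cochaperone that links Hsp70 and Hspb8 to autophagy, had signals of 325 and 275 after saline, 461 and 677 after 14 mg/kg and 331 and 542 after 18 mg/kg in A-CREB mice. It had 342 and 543 after kainate, against 225 and 394 after saline in wild-type mice. The wild-type groups overlapped in level, but within replicate numbers the kainate pool was higher by 0.56 and 0.44. In A-CREB mice it was higher by 0.48 and 1.23 at 14 mg/kg and by 0.03 and 0.92 at 18 mg/kg. The mean response was 0.58 ± 0.24 (adjusted p = 0.79, and 0.11 with the block).

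Hsph1, the Hsp110 protein that exchanges the nucleotide of Hsp70, had mean responses of 0.36 ± 0.17 on 1425993_a_at and 0.38 ± 0.18 on 1423566_a_at (adjusted p = 0.90 and 0.91, and 0.088 and 0.17 with the block). On 1425993_a_at the A-CREB signals were 4649 and 3359 after saline, 6784 and 5651 after 14 mg/kg and 6403 and 5584 after 18 mg/kg. The wild-type signals were 7001 and 4375 after kainate, against 5761 and 4623 after saline. The A-CREB kainate pools thus lay above both A-CREB saline pools, while the wild-type kainate pools lay on either side of theirs. Hspa4l, the other Hsp110 gene here, had mean responses from −0.07 to 0.23 over 5 probe sets, none past the threshold.

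Hspa8, Hsp90aa1 and Dnaja1 were among the brightest transcripts of the tissue and moved little on their bright probe sets. Hspa8 gave signals of 17741 to 27655 on 1455789_x_at, and its mean response there was 0.22 ± 0.13. That of 1420623_x_at was 0.18 ± 0.09 and that of 1420622_a_at was −0.10 ± 0.30. The dim Hspa8 probe set 1431182_at differed from these. It had 198 and 124 after saline, 308 and 261 after 14 mg/kg and 367 and 630 after 18 mg/kg in A-CREB mice, and 232 and 197 after kainate, against 224 and 133 after saline in wild-type mice, with a mean response of 0.70 ± 0.23 (adjusted p = 0.59, and 0.13 with the block). The sources used here do not say what part of the gene it reads. Hsp90aa1, the stress-regulated cytosolic Hsp90, had mean responses of 0.00, 0.07 and 0.13, and Dnaja1, a J protein of Hsp70, had 0.04, 0.14 and 0.20. The 95% intervals of these 6 probe sets all included 0, the widest from −0.76 to 0.83 for Dnaja1 1459835_s_at and the narrowest from −0.14 to 0.27 for Hsp90aa1 1438902_a_at. With the block that of Dnaja1 1416288_at did not include 0, running from 0.019 to 0.39 at an adjusted p of 0.32 by limma, and that of 1459835_s_at narrowed to −0.16 to 0.23.

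A few probe sets moved with the replicate number while others of their gene did not. Dnaja1 1459835_s_at was higher on replicate 2 in all 5 groups, by 0.78 to 1.28, and Hspa8 1420622_a_at by 0.26 to 1.13. The other probe sets of both genes showed no such order, their differences running from −0.39 to 0.12 for Dnaja1 and, for the bright ones of Hspa8, from −0.44 to 0.13. Over the members, 3 probe sets were higher and 3 lower on replicate 2 in all groups, against 24.5% and 14.6% of all tested.

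**Figure D3:**
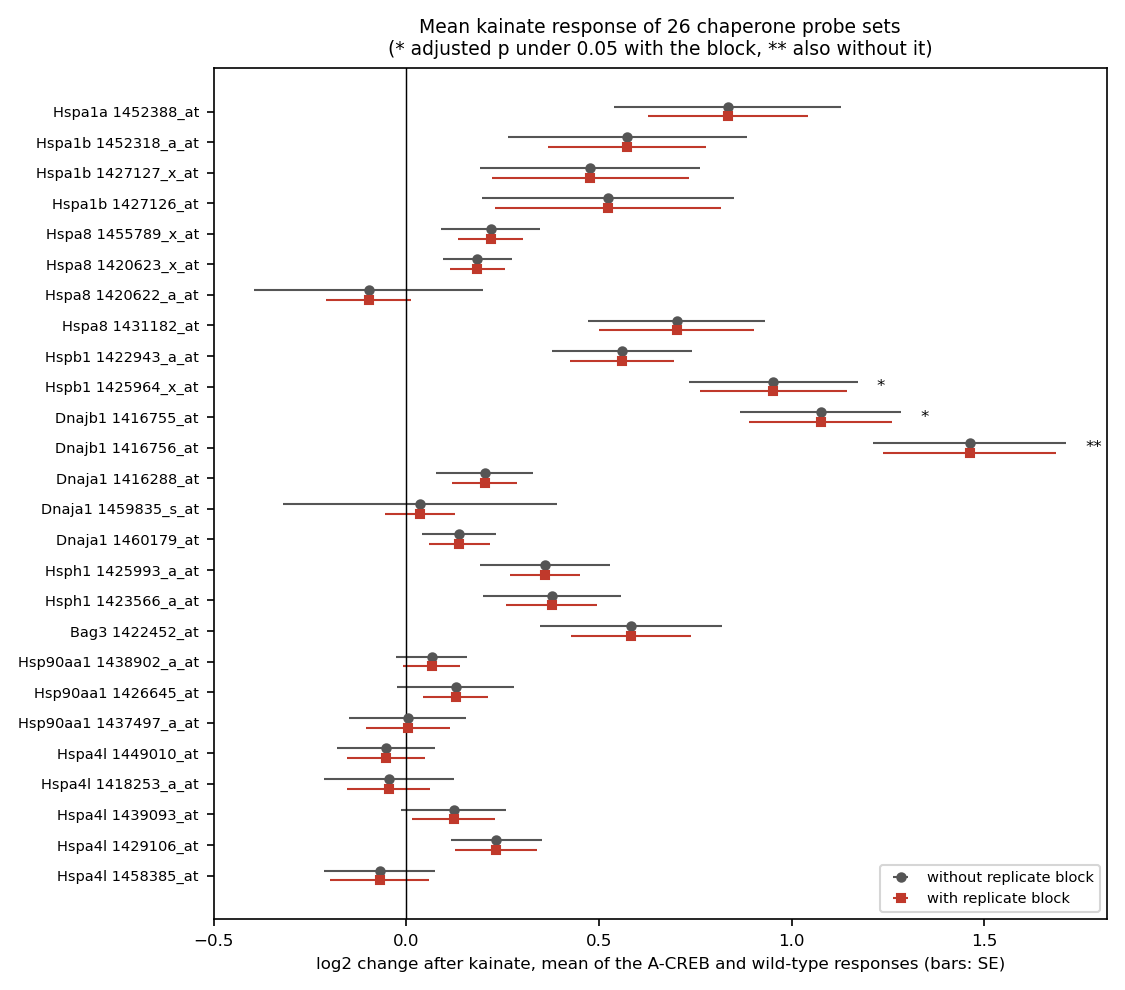
Mean kainate response (log2 of signal + 22) of each of the 26 tested member probe sets, with bars of 1 SE from the limma fit without (grey circles) and with (red squares) the replicate block, 1 asterisk marking an adjusted p under 0.05 with the block and 2 asterisks one in both fits. Dnajb1 1416756_at at 1.46 and 1416755_at at 1.08 lead, Hspb1 1425964_x_at follows at 0.95, and the probe sets of Hsp90aa1 and Dnaja1 lie near 0.

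Counted over the group, the members leaned upward after kainate in each comparison. In A-CREB mice at 14 mg/kg 25 of the 26 probe sets were higher, with a median of 0.35, where 45.7% of all tested probe sets were higher and their median was −0.03. At 18 mg/kg 22 were higher with a median of 0.26, against 49.8% and −0.00. In wild-type mice at 14 mg/kg 21 were higher with a median of 0.17, against 43.7% and −0.04. The wild-type figure depended on the scaling, since quantile normalization gave 16 higher with a median of 0.02 and cyclic loess 16 with 0.04. It also depended on single arrays, the median being 0.06 without wild-type kainate replicate 1 and 0.34 without its replicate 2, and the A-CREB median at 18 mg/kg was 0.42 without its own replicate 1. The members share genes and probe sequences, so they are not independent, and the 2 A-CREB responses share their saline arrays.

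None of these responses put a member past the threshold by limma. The shares of all tested probe sets that rose were 0.181% in A-CREB mice at 14 mg/kg, 0.0703% in A-CREB mice at 18 mg/kg and 0.0629% in wild-type mice at 14 mg/kg, and 0.681%, 0.352% and 0.315% with the block, which also called 0 members. Before adjustment 5, 9 and 2 members were higher in that order at p under 0.05, where 2.12%, 1.62% and 1.52% of all tested were. With the block these numbers were 12, 12 and 4, where 4.4%, 4.14% and 3.5% of all tested were. In A-CREB mice at 14 mg/kg both arrays lay above both saline arrays for 19 members, where this held for 12.4% of all tested. It held for 14 at 18 mg/kg, against 12.4%, and for 8 in wild-type mice, against 9.23%. All 6 kainate arrays exceeded all 4 saline arrays for 4 members (Dnajb1 on both, Hspb1 1425964_x_at and Hspa1a), against 1.58% of all tested.

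Within each replicate number the members also leaned upward, least in wild-type mice on replicate 2. Both numbers were higher after kainate for 21 of 26 members in A-CREB mice at 14 mg/kg, for 19 at 18 mg/kg and for 15 in wild-type mice, where this held for 24.3%, 26.3% and 20.8% of all tested. Both were lower for 0, 0 and 2 members, where this held for 31.9%, 26% and 30.7% of all tested. In wild-type mice the median was 0.24 on replicate 1 and 0.09 on replicate 2, the array with the high striatal sum, while Dnajb1 1416756_at responded there by 1.23 on replicate 1 and 1.57 on replicate 2.

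**Figure D4:**
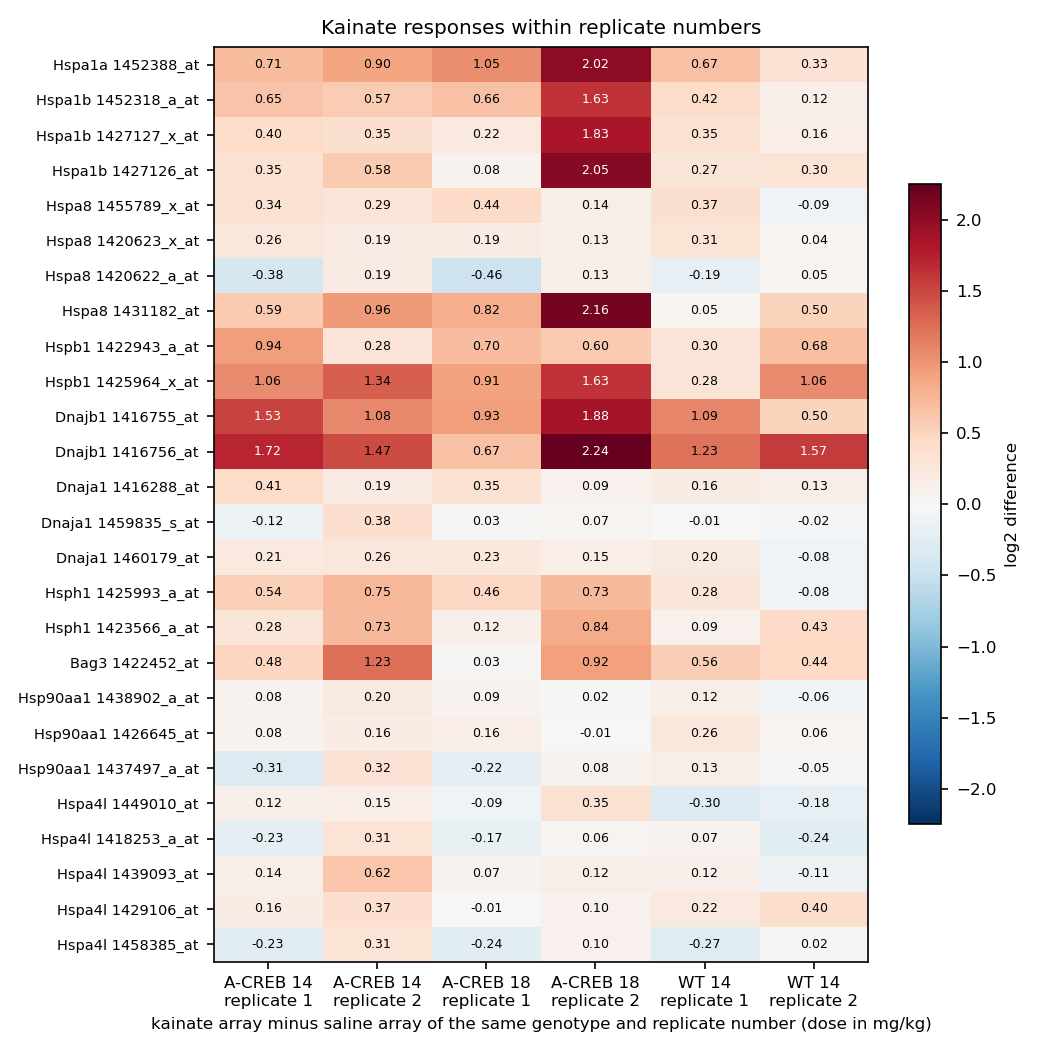
Heat map of the kainate response within replicate numbers, with 1 row per tested member probe set and 1 column per kainate array (A-CREB at 14 mg/kg, A-CREB at 18 mg/kg, wild type at 14 mg/kg, replicates 1 and 2 of each). Colour and printed value give the log2 signal of the kainate array minus that of the saline array of the same genotype and number. Replicate 2 at 18 mg/kg is the darkest column, with 2.02 for Hspa1a, 2.24 for Dnajb1 1416756_at and 2.16 for Hspa8 1431182_at.

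Between the genotypes no member differed by a test. After kainate at 14 mg/kg 23 of 26 probe sets were higher in A-CREB than in wild-type mice, with a median of 0.19, where 50.8% of all tested were higher and their median was 0.00. Most of this lay in replicate 2, where 23 were higher with a median of 0.34, against 48.4% of all tested. In replicate 1, 15 were higher with a median of 0.04, against 51.7% of all tested. Without wild-type kainate replicate 2, the array with the high striatal sum, 17 were higher with a median of 0.08, and without wild-type kainate replicate 1 the median was 0.34. The largest difference was 0.39 ± 0.47 for Hspa1b 1452318_a_at. Of the members 0 passed the threshold, and of all tested 0% did (0.0037% with the block). No member had a p under 0.05 even before adjustment in either fit, where 1.01% of all tested did (4.14% with the block), and all 26 intervals included 0. After saline 13 of 26 were higher in A-CREB mice, with a median of −0.01 and a range from −0.39 for Hspb1 1425964_x_at to 0.29 for Hspa4l 1429106_at. None passed the threshold, with 0% of all tested (0.0037% with the block) and before adjustment 0 members had a p under 0.05, where 1.26% of all tested did. With the block 1 did, Hsph1 1425993_a_at, a share below the 5.11% of all tested.

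The response to 14 mg/kg was larger in A-CREB than in wild-type mice for 22 of 26 probe sets, by a median of 0.18. Of all tested 50.4% were larger, with a median of 0.00. No difference passed the threshold (0% of all tested in either fit). Before adjustment 0 members had a p under 0.05 by limma, where 0.596% of all tested did, and 1 with the block, where 3.03% did. In replicate 2, 23 were larger with a median of 0.32, against 49.8% and −0.00 for all tested. In replicate 1, 16 were larger with a median of 0.04, against 52.2% and 0.02. Without wild-type kainate replicate 2, the array with the high striatal sum, 17 were larger with a median of 0.11, while the median was 0.32 without its replicate 1 and 0.27 when replicate 1 of the A-CREB pools at 14 mg/kg was left out. By the brightest probe set of each gene it was larger for 10 of 10 genes, with a median of 0.32, where 52.0% of 13248 genes were larger and their median was 0.01, and for 9 genes in replicate 2 and 7 in replicate 1. The largest were 0.54 ± 0.36 for Hsph1 1425993_a_at, 0.53 ± 0.47 for Hspb1 1425964_x_at and 0.51 ± 0.45 for Dnajb1 1416755_at. The 95% interval of Dnajb1 1416755_at ran from −0.49 to 1.51, and on 1416756_at the difference was 0.19, from −1.01 to 1.40. For Hspa1a it was 0.30, from −1.12 to 1.72, an interval wider than either of its responses at 14 mg/kg, 0.80 in A-CREB and 0.50 in wild-type mice. The 2 saline groups enter this comparison, and Hsph1 1425993_a_at and Hspb1 1425964_x_at were also the members with the lowest A-CREB values relative to wild type after saline, at −0.38 and −0.39.

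Between the doses in A-CREB mice, 8 of 26 probe sets were higher at 18 than at 14 mg/kg, with a median of −0.05, where 54.4% of all tested were higher and their median was 0.02. Quantile normalization gave 14 higher with a median of 0.01, and without single A-CREB kainate pools the median ran from −0.15 to 0.07. Hspa1a (0.73 ± 0.45), Hspa8 1431182_at (0.72 ± 0.35) and the 3 Hspa1b probe sets (0.54 to 0.65) had the largest differences. For Hspa1a and Hspa1b these rested mostly on replicate 2 at 18 mg/kg, as described above. For Hspa8 1431182_at both pools at 18 mg/kg (367 and 630) lay above both at 14 mg/kg (308 and 261). This held for 1 member probe set, against 10.6% of all tested. The dose difference of Hspa8 1431182_at nevertheless also lay mostly in replicate 2 at 18 mg/kg, whose excess on this probe set was 1.17. Bag3 had the lowest dose difference, at −0.38 ± 0.36. Of the members, and of all tested, 0 passed the threshold in either fit, and before adjustment 0 members had a p under 0.05, where 0.496% of all tested did, and 2 with the block, where 2.49% did.

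Genes that act beside these members were taken from 9 lists by their brightest tested probe set. Of 15 other cytosolic J protein genes 1 rose in the mean response and 0 fell. This was Dnajb4, a close relative of Dnajb1, whose A-CREB signals were 1704 and 1859 after saline, 3360 and 3557 after 14 mg/kg and 2929 and 4010 after 18 mg/kg, and whose wild-type signals were 2937 and 2433 after kainate, against 1958 and 1615 after saline. All its kainate pools exceeded all its saline pools, with a mean response of 0.76 ± 0.13 (adjusted p = 0.049 by limma, 0.0054 with the block). Dnajb5, another of that family, had 0.64 ± 0.19 and passed with the block alone (adjusted p = 0.044). The median of the 15 was 0.03, against −0.03 over all 13248 genes.

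Among 4 of 6 other Hsp70 and Hsp110 genes tested, Hspa14, a ribosome-associated Hsp70, had 0.66 ± 0.14 and passed with the block alone (adjusted p = 0.013), and the list median was 0.16. None of the 4 tested of 5 heat shock factors and their regulators passed in either fit, with a median of −0.00. None of 7 tested of 9 other small heat shock proteins, 12 nucleotide exchange factors and Hsp70 cochaperones, 12 tested of 16 Hsp90 and cochaperone genes, and 12 chaperonin and mitochondrial chaperone genes passed either, with medians of 0.14, −0.00, 0.06 and 0.07. Of 20 chaperones of the endoplasmic reticulum, Hspa5, its main Hsp70, had 0.53 ± 0.14 and passed with the block alone (adjusted p = 0.040), with a list median of 0.13. Of 11 tested of 13 oxidative and metal stress genes, the stress-induced transcription factor gene Atf3 rose by 4.11 ± 0.28 (adjusted p = 0.00033), and Srxn1, which repairs oxidised peroxiredoxins (0.79 ± 0.19, adjusted p = 0.0070), and Mt2, a metallothionein (0.57 ± 0.14, adjusted p = 0.014), passed with the block alone. The list median was 0.20.

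**Figure D5:**
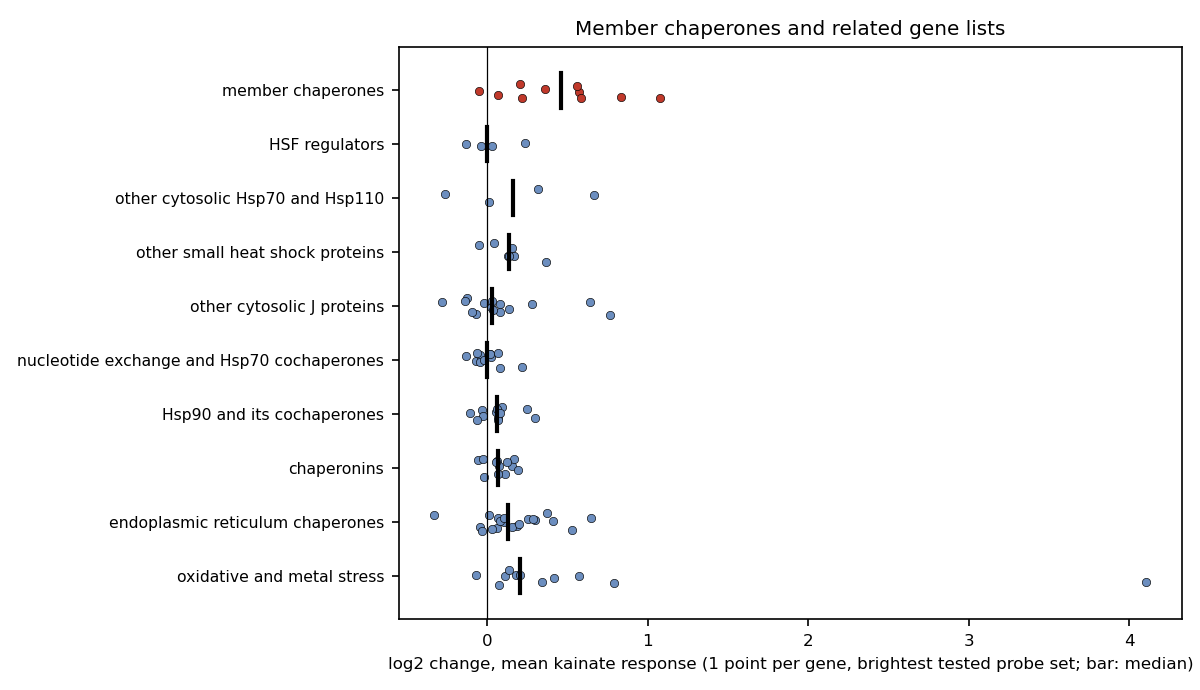
Mean kainate response (log2 of signal + 22) of the 10 member genes (top row, red) and of the genes of each chaperone and stress list. Each gene is 1 point, by its brightest tested probe set, and bars give medians. Dnajb4 at 0.76 and Atf3 at 4.11 passed the threshold without the block. The medians of the lists lie between −0.00 and 0.20, and that of the members is 0.46.

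The genes whose pattern over the 10 arrays was most like that of Dnajb1 (1416755_at) were Coq10b, Tcim, Spty2d1, Gpr19 and Crem. Their mean absolute difference from Dnajb1 in centred log2 signal was 0.151, 0.160, 0.165, 0.181 and 0.183, where the median over probe sets was 0.621. Spty2d1 had, like Dnajb1, a wide gap between the pools at 18 mg/kg, 1127 and 2556. Those most like Hspa1b (1452318_a_at) were Smarca5, Prkx, Fgl2, Cdh9 and Arrdc3, at 0.153 to 0.224 with a median of 0.501 over probe sets. All arrays of 1 number share the level differences described above, and these distances are descriptions with no test.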

How the data were processed

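The authors deposited 1 intensity per probe set and array, the MAS5 signal made in GCOS, per the submitters' processing notes; the sources used here give no version or setting. Each array's 2% trimmed mean was 500 when checked. The platform annotation named 1 gene for 34945 of 45101 probe sets, and 0 of the 932 naming several genes named a member. Signals were taken as log2(signal + 22), 22 being the 20th percentile over all arrays, and were not scaled again, so a log2 change of a dim gene is understated. Probe sets in the upper 60% by mean signal (27022) were fitted together in limma 3.58.1 (R 4.3.3; linear models with a trended eBayes prior; 5 residual degrees of freedom, 4 with the block), and two-sided p-values were Benjamini-Hochberg adjusted over all of them within each of 8 comparisons, at a threshold of 0.05. The labels do not say what the replicate numbers mark. Arrays of the same number deviated together in all 10 pairs of groups (r from 0.52 to 0.63), so the block was treated as a pairing. The procedure was run on simulated data with planted changes, to check that their mean estimates came near the planted size. How often real changes are found with 2 arrays per group was not judged from that run. Promoter windows came from RefSeq (GRCm38.p6). Alternatives were 2 other pseudocounts, 2 other filters, cyclic loess and quantile normalization, an untrended prior, the block, 1 probe set per gene, omission of probe sets whose suffix (_a_at, _s_at or _x_at) marks shared sequence, fitting the groups compared alone, and leaving out each array. All members were described. From each list up to 4 genes with the smallest p in the mean kainate response, and any past the threshold, could be named, and 5 genes most like each of Dnajb1 and Hspa1b. Members, lists and this rule were chosen with earlier results of these data known.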

Additional observations from a re-analysis of the deposited data

How the results depend on the processing

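The count of member probe sets that changed in the mean kainate response was 1. It was 0 with no filter, quantile normalization, cyclic loess, no intensity trend or 1 probe set per gene, and 3 with the replicate block. For Dnajb1 1416756_at, the one that changed, the adjusted p was 0.053 with no filter, 0.050 with quantile normalization, 0.054 with cyclic loess and 0.17 with no intensity trend, at log2 changes of 1.46 to 1.47. Leaving out single arrays gave counts of 0 to 2 in the mean response and 0 to 1 in the A-CREB response at 18 mg/kg. In the other 6 comparisons the count was 0 under each of these alternatives. The replicate block, which the pairing of the numbers allows, changed the call of no other member probe set than Dnajb1 1416755_at and Hspb1 1425964_x_at.

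With the block and single arrays left out, an alternative added after seeing the data, the counts were 0 to 8 in the mean response (0 without wild-type saline replicate 2, 2 without either A-CREB 14 mg/kg pool, A-CREB saline replicate 1 or A-CREB 18 mg/kg replicate 2, 3 without wild-type kainate replicate 2 or A-CREB saline replicate 2, 4 without wild-type saline replicate 1, and 8 without A-CREB 18 mg/kg replicate 1). In the A-CREB response at 18 mg/kg the count was 7 without its replicate 1 and 1 without any of the 4 wild-type arrays. In the A-CREB response at 14 mg/kg it was 2 without either 18 mg/kg pool and 1 without either wild-type saline array or A-CREB saline replicate 1. In the wild-type response it was 1 without either 18 mg/kg pool. Each of these fits has fewer arrays and leaves 1 array in a group. The counts of all tested probe sets also varied over the alternatives, as given below. They are not set beside the member counts fit by fit. The member counts therefore do not show whether members passed more often than other probe sets in these fits. The cause of the differences between the counts was not tested.

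Over all alternatives 386 of 6190 member values changed sign, 0 of them past the threshold there. The count of all tested probe sets past the threshold ran from 61 to 522 in the mean response (124 as reported), from 2 to 200 in the A-CREB response at 14 mg/kg (49), from 2 to 144 at 18 mg/kg (19) and from 3 to 130 in wild-type mice (17). Dnajb4 lost its call with no filter (adjusted p = 0.056), quantile normalization (0.054), cyclic loess (0.063) and no intensity trend (0.19), and without any single array (0.088 to 0.28) other than A-CREB 18 mg/kg replicate 1 (0.033). Fitting only the groups of a comparison gives no value for the mean response, which uses all groups. Signals below the filter, such as those of 2 Hsp90aa1 probe sets, were not tested.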
